A study of Mus musculus with 4 samples.

Results

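The imprinted Dlk1-Dio3 miRNA cluster of mouse chromosome 12 was examined in the small RNA of exosomes from 2 colon carcinoma lines. Its members are 39 mature miRNAs of the locus, taken by name under a rule that uses no measured value. Of these, 23 are among the 795 mature miRNAs listed, and the other 16 were not analysed here. Exosomes were collected from exosome-free medium conditioned by C26 cells, a line whose tumours are widely used to study cancer wasting, or by MC38 cells. Each line gave 1 library of exosomes precipitated with ExoQuick-TC Exosome Isolation Reagent and 1 of exosomes caught with the Wako Capture Exosome ELISA Kit, so each of the 4 combinations of line and kit has 1 library. All 4 share culture in exosome-free medium, and no treatment or genetic change is given. Nothing in the labels says whether the libraries came from separate cultures, so the spread between these libraries may be technical. In a fit with line and kit terms, any p-value rests on how far line differences change between the kits, and not on replicates. That spread is pooled over miRNAs, so it is not that of the single miRNA alone. Each library is called by its line and its kit, and miRNA names are given without their prefix, so that miR-369-3p, for example, stands for mmu-miR-369-3p, miR-382-5p for mmu-miR-382-5p and miR-494-3p for mmu-miR-494-3p.

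The Dlk1-Dio3 region is expressed according to the parent of origin. The paternal copy gives protein-coding RNAs, among them Dlk1, Rtl1 and Dio3, and the maternal copy gives long noncoding RNAs, among them Meg3, Rian and Mirg, from which snoRNAs and a large array of miRNAs are cut. These miRNAs are abundant in the embryo, placenta and brain, and most adult tissues hold little of them. A first group lies opposite the paternal gene Rtl1 and is fully complementary to its mRNA. A second, larger array from miR-379 to miR-410 is well known in neurons, and miR-134 limits the size of dendritic spines in rat neurons.

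The mature sequences of the members that carry most of the reads are shown because the cluster holds near relatives that could be confused in mapping. They are taken from RefSeq (GRCm38.p6), in which 22 of the 23 listed members have an entry, and the seed, bases 2 to 8, is in capitals. The 10 members with the most reads, ties included, are given in falling order, followed by 2 relatives.
miR-369-3p: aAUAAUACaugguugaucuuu
miR-382-5p: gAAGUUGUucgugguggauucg
miR-494-3p: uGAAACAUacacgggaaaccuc
miR-409-3p: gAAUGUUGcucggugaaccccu
miR-379-5p: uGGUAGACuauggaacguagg
miR-410-3p: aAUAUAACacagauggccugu
miR-541-5p: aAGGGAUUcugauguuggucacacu
miR-127-3p: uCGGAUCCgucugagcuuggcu
miR-300-3p: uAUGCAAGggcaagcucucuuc
miR-323-3p: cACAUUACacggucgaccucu
miR-381-3p: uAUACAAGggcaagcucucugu
miR-411-5p: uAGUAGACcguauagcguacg

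All of these lie on the plus strand, from miR-127-3p at chr12:109592888-109592909 to miR-410-3p at chr12:109743764-109743784. No 2 listed members with a sequence shared a full seed. miR-300-3p and miR-381-3p are identical at 19 of 22 bases, but their seeds differ, so a read of one matches the other only with mismatches. miR-379-5p and miR-411-5p are neighbours with similar, unequal seeds. Outside the locus, the listed miRNAs with a member's seed are miR-362-3p (the seed of miR-329-3p), miR-344d-3p (that of miR-410-3p) and miR-1192 (that of miR-495-3p).

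Every value below is read from a deposited table of normalized signal, whose entries are whole multiples of the worth of 1 read and are given here as RPM (reads relative to the library total, scaled to 1000000). Totals were 1356801 reads for C26 ExoQuick, 340643 for MC38 ExoQuick, 33692 for C26 Wako and 3867 for MC38 Wako. In these libraries 1 read equals 0.737, 2.94, 29.7 and 259 RPM, and where no read was found a level of up to 2.21, 8.81, 89.0 and 776 RPM remains possible (3 reads per library). Intervals are exact 95% intervals and, like these floors, cover counting error only. Kit and depth cannot be told apart, since the Wako library was the shallower of each line. Of 9 epithelial and gut miRNAs set as markers of the labelled colon carcinoma, 3 are listed (miR-192-5p, miR-194-5p and miR-203-3p), with 70.5 to 1034 RPM in sum per library, and the miR-200 family was not analysed here. Of the marker lists for other cells, the 5 mesenchymal miRNAs summed to 132085 RPM with ExoQuick and 67167 RPM with Wako in C26, against 2448 and 43962 RPM in MC38. The 4 white blood cell miRNAs summed to 4656 and 6114 RPM in C26 and to 79.3 and 6465 RPM in MC38, in the same order of kits. In C26 miR-142a-5p gave most of the ExoQuick sum and was lower with Wako (4584 and 2909 RPM). The other 3, miR-142a-3p, miR-223-3p and miR-150-5p, were higher with Wako there. The 3 red cell miRNAs summed to 221 and 1039 RPM in C26 and to 41.1 and 776 RPM in MC38. In MC38 Wako the epithelial and gut, white blood cell and red cell sums rest on 4, 25 and 3 reads. The part of these lists in the values of the cluster was not tested.

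Exosomes of both lines carried little of the cluster in the ExoQuick libraries. In MC38 ExoQuick the listed members made up 0.00969% of the library and 0 reached 100 RPM. In MC38 Wako 2 members did, but 1 read equals 259 RPM there. In C26 ExoQuick, the deepest library, the 23 listed members had 177 reads in all, or 130.5 RPM (exact 95% interval 112 to 151), which is 0.0130% of the library. No member reached 100 RPM there, while 153 of all 795 miRNAs (19.2%) did. The median level of the members was 2.95 RPM against 4.42 RPM for all listed miRNAs, and 9 of 23 stood above that median. The 22 members with reads ran from 0.74 RPM, a single read, to 44.2 RPM. Since every listed miRNA has a read in at least 1 library, these medians leave out miRNAs with no reads at all.

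**Figure D1:**
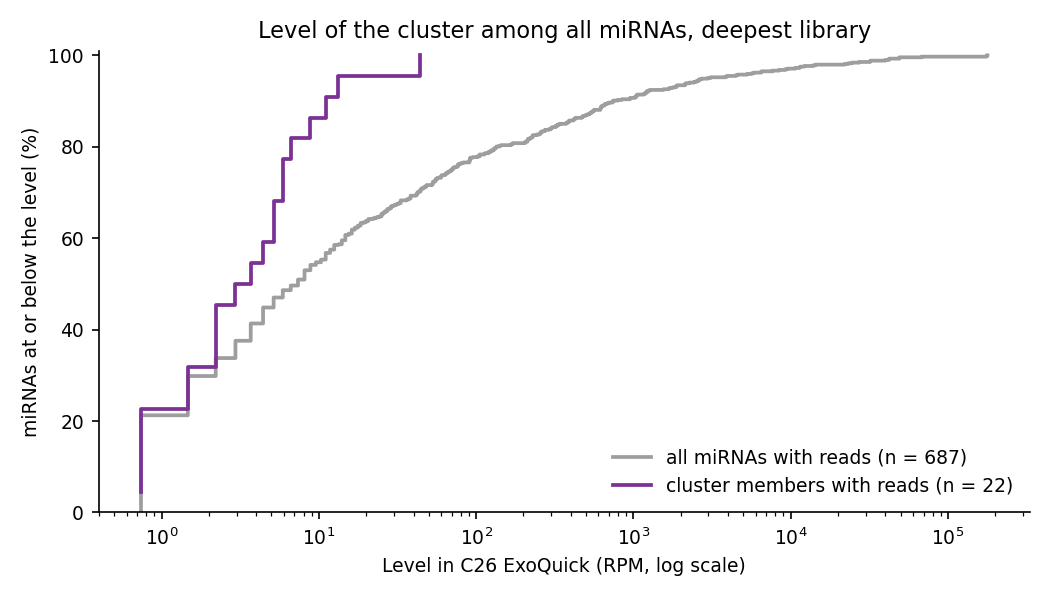
Share of miRNAs (y axis, %) at or below each level in C26 ExoQuick (x axis, RPM, log scale), for the 22 cluster members with reads (purple) and all 687 miRNAs with reads (grey). The purple line ends at 44.2 RPM, the level of miR-369-3p, while the grey line goes on to the far higher levels of the leading miRNAs.

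miR-369-3p led the cluster and was the only member with reads in all 4 libraries. In human cells it is known to bind AU-rich elements in the TNF mRNA. Its hairpin (Mir369, chr12:109743418-109743496, plus strand) overlaps an exon of Mirg in GENCODE M21. It had 60 reads in C26 ExoQuick (44.2 RPM, interval 33.7 to 56.9), 16 in MC38 ExoQuick (47.0 RPM, 26.8 to 76.3), 1 in C26 Wako (29.7 RPM, 0.751 to 165) and 2 in MC38 Wako (517 RPM, 62.6 to 1867). The ExoQuick libraries of the lines were thus nearly level, with a C26 to MC38 ratio of 0.941 and an interval (0.535 to 1.75) that holds 1. Among all 795 miRNAs it ranked at 203 in C26 ExoQuick and 190 in MC38 ExoQuick. It made up 33.9% of the reads of the members in C26 ExoQuick.

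miR-382-5p and miR-494-3p followed. miR-382-5p, whose hairpin overlaps an exon of Mirg in GENCODE M21 and lies upstream of Mirg as RefSeq places it, had 18 reads in C26 ExoQuick (13.3 RPM), 2 in MC38 ExoQuick (5.87 RPM), 3 in C26 Wako (89.0 RPM) and 0 in MC38 Wako. C26 was the higher line under ExoQuick by a ratio of 2.26, with an interval (0.541 to 20.1) that holds 1. miR-494-3p, from the array between miR-379 and miR-410, had 15 reads in C26 ExoQuick (11.1 RPM), 7 in MC38 ExoQuick (20.6 RPM) and 0 in both Wako libraries. MC38 was the higher line for it, at a C26 to MC38 ratio of 0.538 (0.206 to 1.56). Neither direction was larger than counting error.

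Another 4 members had reads in MC38 ExoQuick beside a few in C26 ExoQuick, and each of their levels rests on 7 reads or fewer per library. miR-410-3p had 7 and 2 reads in C26 and MC38 ExoQuick (5.16 and 5.87 RPM), and miR-381-3p had 4 and 3 (2.95 and 8.81 RPM). miR-377-3p had 3 and 1 (2.21 and 2.94 RPM). The same counts, 3 and 1, were found for miR-136-3p, a strand cut from the antisense Rtl1 group. These 4 members had 0 reads in both Wako libraries. miR-379-5p, the first miRNA of the large array, had 8 reads in C26 ExoQuick (5.90 RPM), 1 in C26 Wako (29.7 RPM), 1 in MC38 ExoQuick (2.94 RPM) and 0 in MC38 Wako.

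Other members had reads in C26 and none in MC38 ExoQuick. miR-409-3p had 12 reads (8.84 RPM) in C26 ExoQuick alone, with 0 in the other 3 libraries. At the same level, 3.01 reads would stand in MC38 ExoQuick, which is close to the 3 reads that a count of 0 allows, so no difference was detectable at that depth. miR-541-5p (9 reads), miR-323-3p (8), miR-495-3p (6), miR-409-5p (3), miR-299a-5p (2) and miR-134-5p, miR-154-5p, miR-329-3p and miR-539-5p (1 each) complete the 10 members seen in C26 ExoQuick only. miR-127-3p, which lies opposite Rtl1 and directs cleavage of its mRNA, had 7 reads in C26 ExoQuick (5.16 RPM), 1 in C26 Wako (29.7 RPM) and 0 in MC38. miR-300-3p had 5 reads in C26 ExoQuick (3.69 RPM), 3 in C26 Wako (89.0 RPM) and 0 in MC38, and miR-411-5p 2 (1.47 RPM) and 1 (29.7 RPM). miR-376b-3p had 1 read, in C26 Wako (29.7 RPM). miR-376c-3p had 1 in C26 ExoQuick (0.74 RPM) and 1 in MC38 Wako, where that single read stands for 259 RPM. In mouse brain, RNAs of the miR-376 group are known to be edited within the seed, and reads changed in this way were not analysed here.

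**Figure D2:**
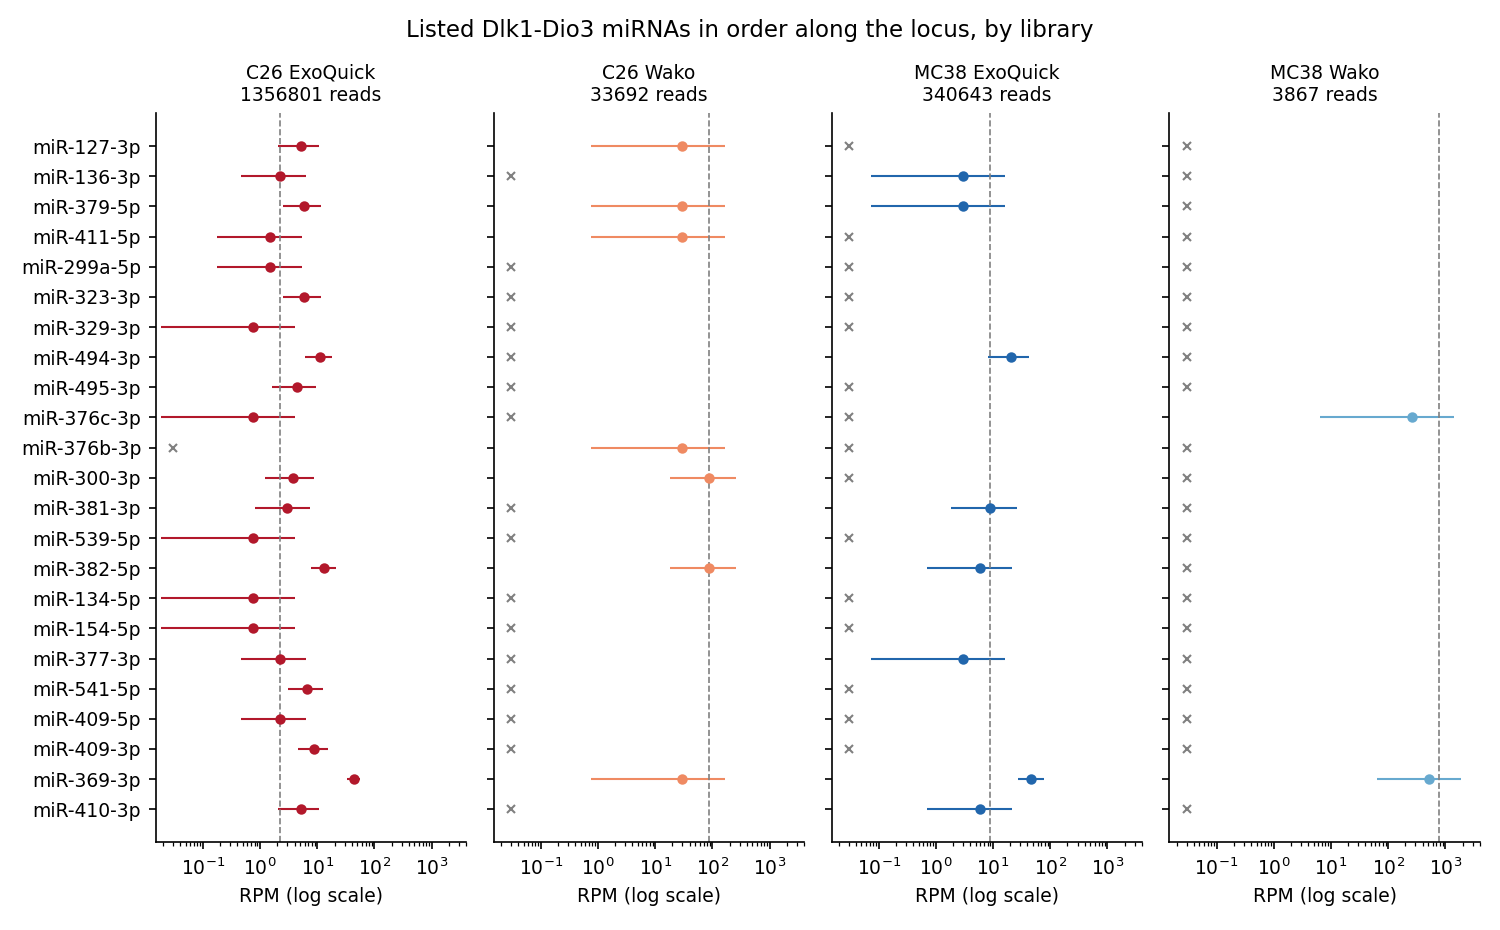
Level of each of the 23 listed members (x axis, RPM, log scale) in the 4 libraries, ordered along the locus from top to bottom. Points are levels with exact 95% counting intervals, crosses are counts of 0, placed at the left edge, and the dashed line is the 3-read floor of the library. miR-369-3p is the only member with a point in all 4 panels, and in MC38 Wako only 2 members have one.

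Most of the reads came from the distal array of the locus, which also holds 21 of the 23 listed members. Of 9 members upstream of or antisense to Rtl1, 2 are listed, miR-127-3p and miR-136-3p, with 10, 1, 1 and 0 reads in C26 ExoQuick, MC38 ExoQuick, C26 Wako and MC38 Wako. The members miR-341-3p and miR-370-3p, whose hairpins lie in an intron of Rian, were not analysed here. The array from miR-379 to miR-410 holds 28 members, of which 21 are listed, and these had 167 of the 177 reads in C26 ExoQuick (94.4%) and 32 of the 33 in MC38 ExoQuick (97.0%). Its 9 listed members with a hairpin inside Mirg (GENCODE M21, same strand) took 64.4% and 63.6% of the reads of the members in those libraries, of which miR-369-3p gave most. The RefSeq entry of Mirg takes in 7 of these 9, without miR-382-5p and miR-134-5p, and with it the shares were 53.7% and 57.6%. The 12 listed members of the array in no annotated gene of that strand took 29.9% and 33.3%. The C26 to MC38 ratio under ExoQuick was 1.36 (0.851 to 2.29) for the Mirg members and 1.21 (0.624 to 2.57) for the others, with intervals that overlap. Other members not analysed here were miR-136-5p, miR-431-5p, miR-433-3p, miR-434-3p, miR-434-5p, miR-665-3p and miR-673-5p near Rtl1, and miR-376a-3p, miR-485-5p, miR-487b-3p, miR-543-3p, miR-654-3p, miR-667-3p and miR-668-3p of the array.

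Detection of the cluster fell with depth over the 4 libraries, as did that of all listed miRNAs. Reads were found for 22 of 23 members in C26 ExoQuick, 8 in MC38 ExoQuick, 7 in C26 Wako and 2 in MC38 Wako, against 687, 475, 407 and 188 of all 795 miRNAs. As shares these are 95.7%, 34.8%, 30.4% and 8.70% of the members and 86.4%, 59.7%, 51.2% and 23.6% of all. If C26 ExoQuick were thinned to the depth of MC38 ExoQuick, 14.6 members would be expected to keep a read, and 8 were seen there. The same calculation for all miRNAs gives 509, against 475 seen. Only 404 of these 475 had reads in C26 ExoQuick and can count toward the 509. Fewer were thus seen than expected both for the members and for all miRNAs. Depth here is the library total, of which miR-130a-3p takes 49.0% in MC38 ExoQuick and 17.8% in C26 ExoQuick. Thinning of the other reads alone was not computed, and these expectations are given without a spread. With at least 3 reads required, 5.16 members would be expected and 3 were seen (miR-369-3p, miR-494-3p and miR-381-3p). The 8 members with reads in MC38 ExoQuick also had reads in C26 ExoQuick, where 22 of 23 did, and so had 404 of the 475 miRNAs with reads in MC38 ExoQuick.

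In the opposite direction, thinning C26 ExoQuick to the depth of C26 Wako leaves 3.40 members expected, and 7 were seen. For all miRNAs 282 were expected and 407 seen, so a surplus in C26 Wako was found across the table and not in the cluster alone. Of those seen, 6 members and 365 of all miRNAs also had reads in C26 ExoQuick. From MC38 ExoQuick to MC38 Wako, 0.357 members were expected and 2 seen, and over all miRNAs 133 were expected and 188 seen. Of those seen, 1 member and 178 of all miRNAs also had reads in MC38 ExoQuick. From C26 Wako to MC38 Wako 1.19 members were expected and 2 seen, while over all miRNAs more were expected (217) than seen (188). Here 1 member and 173 of all miRNAs had reads in both libraries. These expectations have no replicate check, since each depth has 1 library.

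**Figure D3:**
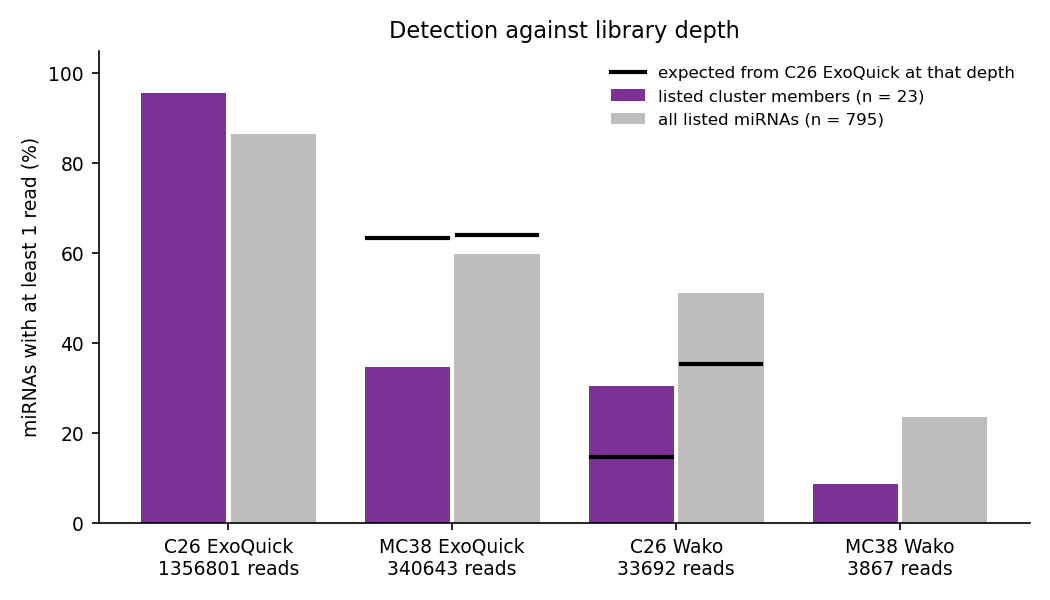
Share of miRNAs with at least 1 read (y axis, %) in the 4 libraries, in order of falling depth, for the 23 listed members (purple) and all 795 listed miRNAs (grey). Black lines mark the share expected if C26 ExoQuick were thinned to the depth of MC38 ExoQuick or C26 Wako: the members lie below it in MC38 ExoQuick (34.8% against 63.3%) and above it in C26 Wako (30.4% against 14.8%).

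The summed level of the members was 130.5 RPM in C26 ExoQuick, 96.9 RPM in MC38 ExoQuick (33 reads, interval 66.7 to 136.05), 326 RPM in C26 Wako (11 reads, 163 to 584) and 776 RPM in MC38 Wako (3 reads, 160.02 to 2266). The 2 ExoQuick values overlap in their intervals, and both Wako values stand above them. C26 stood above MC38 under ExoQuick by a ratio of 1.35 (0.925 to 2.02) and below it under Wako, at a ratio of 0.421 (0.111 to 2.35). Both intervals hold 1. The ExoQuick ratio moved with its leading member and its denominator. Without miR-369-3p it was 1.73 (1.03 to 3.07), and relative to reads other than miR-130a-3p, which takes 49.0% of MC38 ExoQuick and 17.8% of C26 ExoQuick, it turned to 0.836 (0.574 to 1.25).

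Relative to the library total, the Wako library of each line held more of the cluster than its ExoQuick library, by a ratio of 2.50 (1.23 to 4.59) in C26 and 8.01 (1.57 to 25.5) in MC38. The MC38 ratio rests on the 3 reads of MC38 Wako, 2 of miR-369-3p and 1 of miR-376c-3p, and without miR-369-3p it was 5.18 (0.124 to 33.1), which holds 1. Relative to reads other than miR-130a-3p the MC38 ratio was 4.80 (0.941 to 15.3), which also holds 1, while that of C26 was 2.19. Singly, 2 of the 22 members with C26 ExoQuick reads had a Wako to ExoQuick ratio in C26 whose interval lay above 1, against 22.0% of the 687 miRNAs with reads in that library. These were miR-300-3p (24.2, interval 3.75 to 124) and miR-382-5p (6.71, 1.27 to 22.99). Of the 8 members with MC38 ExoQuick reads, 1 did in MC38, miR-369-3p (11.01, 1.23 to 46.8), against 17.5% of 475. A member lower with Wako could not have been told from 1 at these depths: the level of miR-369-3p in ExoQuick corresponds to 1.49 reads in C26 Wako and 0.182 in MC38 Wako. Between the lines, 0 of 22 members with reads under ExoQuick had an interval that left out 1, against 20.1% of 758 miRNAs with C26 as the higher line and 15.2% with MC38. Few reads per member widen these intervals, so the count does not show that the members were alike in the lines. Under Wako no member had more than 3 reads in a library, and no such count is given.

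**Figure D4:**
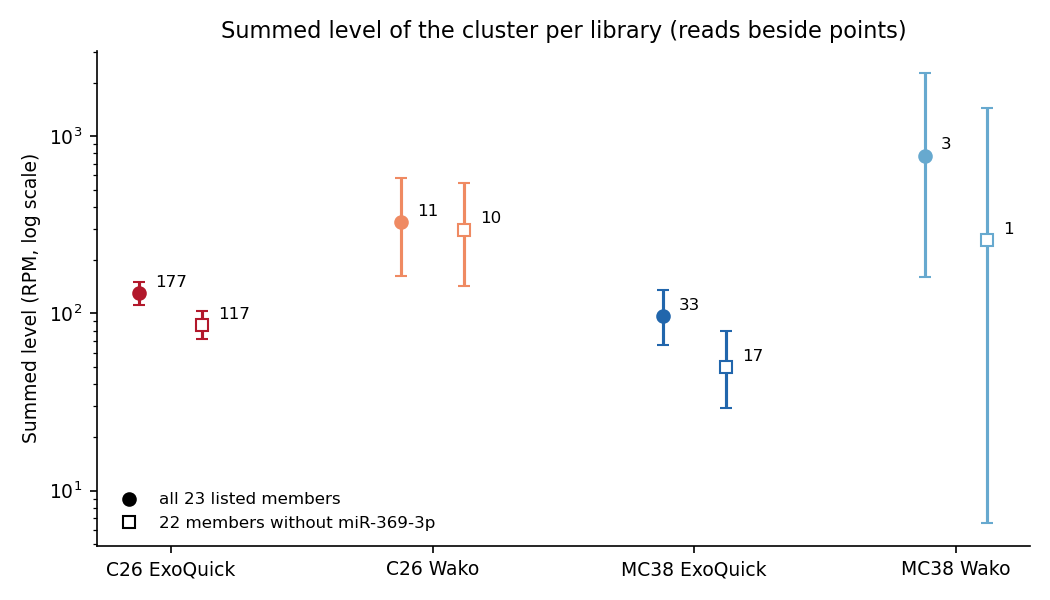
Summed level of the cluster (y axis, RPM, log scale) in each library, for all 23 listed members (filled circles) and for 22 without miR-369-3p (open squares), with exact 95% counting intervals and the number of reads beside each point. The MC38 Wako values rest on 3 reads and 1 read.

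The line comparison named in the title of the series was tested across the table with limma on log2(RPM + 1), with kit as a second term, on all miRNAs whose mean reached 10 RPM. Of the 23 listed members, 4 met that filter: miR-369-3p, miR-382-5p, miR-300-3p and miR-376c-3p. The last 3 met it only through Wako reads, 3, 3 and 1 of them. None of the 4 passed at an adjusted p under 0.05, against 3.33% of the 390 miRNAs tested (13), and 0 of the 4 reached an unadjusted p under 0.05. edgeR on the recovered reads also called 0 of the 4, against 4.87% of the 390. DESeq2 gave an adjusted p to miR-369-3p alone among the 4 and did not call it, against 5.38% of the 390. The other 3, without an adjusted p, could not be called by DESeq2. The log2 difference of miR-369-3p, C26 against MC38, was −2.08 (SE 2.40, limma adjusted p = 0.756), and −0.37 without MC38 Wako, where its level rests on 2 reads. Those of miR-300-3p and miR-382-5p were 4.36 (SE 3.58) and 3.77 (SE 4.29), and that of miR-376c-3p was −3.61 (SE 3.60), with limma adjusted p from 0.711 to 0.755. That of miR-376c-3p turned to 0.40 without MC38 Wako, the library of its 1 Wako read. The median difference over all 390 was 1.85 log2 units, and −0.05 after quantile normalization. Fits without 1 library, which could not keep the kit term, called miR-300-3p higher in C26 when C26 ExoQuick (limma adjusted p = 0.00461) or C26 Wako (limma adjusted p = 0.000944) was left out, with both MC38 libraries at 0 reads and thus without spread. In the ExoQuick pair, 1 of the 4, miR-300-3p with 5 reads against 0, was past 4-fold on this scale toward C26 and 0 toward MC38. Of all tested, 23.6% and 12.3% were. This count describes the filter and not the cluster, since miR-300-3p met the filter only through its C26 Wako reads. Among members left out by the filter, miR-409-3p differed more toward C26 (3.30 against 2.23 log2 units), while miR-381-3p stood toward MC38 (−1.31). Pairs with a Wako library are not counted in this way, since 3 of the 4 entered the test through their Wako reads.

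For the kit comparison the same fit, with line as a second term, called 0 of the 4 members, against 5.38% of the 390 (21). None of the 4 reached an unadjusted p under 0.05. All but miR-369-3p met the filter only through Wako reads, so their kit differences are not independent of that choice. The count is thus no measure of a kit difference in the cluster. edgeR called 0 as well, against 1.79%. DESeq2 again gave an adjusted p to miR-369-3p alone among the 4 and did not call it, against 3.85%. The log2 differences, Wako against ExoQuick, were 1.44 (SE 2.40) for miR-369-3p, 2.13 (SE 3.58) for miR-300-3p, 3.61 (SE 3.60) for miR-376c-3p and −0.06 (SE 4.29) for miR-382-5p, with limma adjusted p from 0.745 to 0.999. Standard errors of this size mean that a difference of several log2 units could not have been called for these members. The direction was not stable for any of them. For miR-369-3p it turned under TMM scaling (−0.16), with edgeR (−0.09) and without MC38 Wako (−0.60). For miR-382-5p it turned with a pseudocount of 10 (0.71), after quantile normalization (0.30), with edgeR (1.16) and DESeq2 (1.47), and without C26 ExoQuick (0.47) or MC38 Wako (3.18). Those of miR-300-3p and miR-376c-3p turned without the Wako library that holds their Wako reads (−1.11 without C26 Wako and −0.40 without MC38 Wako).

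Beside the members, 15 more mature miRNAs of the locus are listed, mostly the opposite strands of the same hairpins. They had 30, 9, 1 and 0 reads in C26 ExoQuick, MC38 ExoQuick, C26 Wako and MC38 Wako. None of them had the mean of 10 RPM needed for the test. miR-376c-5p led them with 6, 2 and 1 reads in the first 3 of these libraries (4.42, 5.87 and 29.7 RPM), more than its partner miR-376c-3p. Its sequence is shown beside that of miR-376b-5p, which had 2 reads in C26 ExoQuick, because the entries are identical at 21 of 22 bases and share their seed.
miR-376c-5p: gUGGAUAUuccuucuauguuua
miR-376b-5p: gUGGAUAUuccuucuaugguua

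miR-127-5p had 5 reads in C26 ExoQuick, near the 7 of miR-127-3p, so both strands of this hairpin were present. For miR-379 the member strand, 5p, had 8 reads in C26 ExoQuick and the 3p strand 0, while in MC38 ExoQuick each had 1. miR-412-5p had 2 reads in C26 ExoQuick (1.47 RPM) and 4 in MC38 ExoQuick (11.7 RPM). Its C26 to MC38 ratio of 0.126 (0.0114 to 0.876) was, under either kit, the only line ratio among the 38 listed miRNAs of the locus whose interval left out 1, and it is named here after its value was seen. miR-299a-3p and miR-299b-3p are identical over the 18 bases of the shorter entry and have the same counts, so their 1 read cannot be divided between them. The same holds for the member miR-299a-5p. Without its first base it equals the 21 bases of miR-299b-5p, and both have 2 reads, in C26 ExoQuick only. Sums over the 38 miRNAs may count these reads under both entries.

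Another miRNA array that is imprinted in mouse, in an intron of Sfmbt2, gives a contrast in where reads were found. Its 49 entries, taken by name, had 912 reads in C26 ExoQuick and 73 in C26 Wako, with several entries sharing reads, and 0 in both MC38 libraries. Over profiles counted once, the level in C26 ExoQuick was 56.5 times the 3-read floor of MC38 ExoQuick. With counting error included, the exact interval of the ratio began at 45.8. The Dlk1-Dio3 members, with 177 and 33 reads under ExoQuick, gave an upper bound of 2.02 for the same ratio. These intervals do not overlap, but the Sfmbt2 array was chosen with earlier results of these data known. The contrast is thus a description of these 2 libraries and no test, and it has no replicate check. Of 12 neuronal and neuroendocrine miRNAs, since the large array is known in neurons, 9 are listed. They summed to 1387 RPM (C26) and 831 RPM (MC38) with ExoQuick and to 2731 and 1552 RPM with Wako, the last on 6 reads. miR-9-3p led them in C26 ExoQuick at 645 RPM, while miR-124-3p was not analysed here. The part of these 9 miRNAs in the reads of the cluster was not tested.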

How the data were processed

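Small RNA of exosomes was sequenced in 4 libraries, 1 for each combination of line (C26, MC38) and kit (ExoQuick, Wako). The deposited table gives a normalized signal per mature miRNA and library, and the submitters' processing notes name DESeq2. No source used here names the aligner, counter, build or miRBase release. Library totals were found as the whole numbers for which 100% of nonzero values are whole reads (tolerance 0.006). Reads that match several miRNAs are listed under each.

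Members were taken by name, and positions and sequences from RefSeq (GRCm38.p6) and GENCODE M21, which may not be the submitters' build. The rule for members uses names alone, but the locus, its member list, the other lists and the tests were chosen with earlier results of these data known. Named with values are members with at least 10 reads in all, or with reads outside C26 ExoQuick. Others are named by their reads.

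Intervals are exact (Clopper-Pearson for levels, conditional binomial for ratios, scipy 1.17.1), and expected detection after thinning is hypergeometric. The test was limma 3.58.1 (R 4.3.3), trend included, fitted to log2(value + 1) with additive line and kit terms and 1 residual degree of freedom per miRNA, two-sided, Benjamini-Hochberg adjusted over all 390 tested. The limma fit was tested on simulated data. It shrinks the variance of each miRNA toward a trend over all tested miRNAs. Its standard errors and p-values therefore do not rest on the 1 residual degree of freedom alone. edgeR 4.0.16 (quasi-likelihood) and DESeq2 1.42.0 were run on recovered reads. With 2 libraries a line, an exact permutation test cannot go below p = 0.333. Other scalings, filters, pseudocounts and left-out libraries were tried.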

Additional observations from a re-analysis of the deposited data

Results flagged for a closer look

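The line difference in the summed level of the members had opposite signs under the kits, at 33.6 RPM (C26 minus MC38) with ExoQuick and −449 RPM with Wako, where MC38 rests on 3 reads. The difference between the kits was not tested, here and in the following results. miR-369-3p was lower with Wako than ExoQuick by −14.5 RPM in C26 (1 read in the Wako library) and higher by 470.2 RPM in MC38 (2 reads). miR-376c-3p, with 1 read in each of 2 libraries, gave a line difference of 0.74 RPM with ExoQuick and −259 RPM with Wako, and a kit difference (Wako minus ExoQuick) of −0.74 RPM in C26 and 259 RPM in MC38. miR-382-5p and miR-379-5p were higher with Wako in C26, by 75.8 and 23.8 RPM, and lower in MC38, by −5.87 and −2.94 RPM, where the Wako library had 0 reads and a floor of 776 RPM.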

How the results depend on the processing

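Of 116 recomputed values for 20 results, 77 kept their direction and side of the threshold or moved within counting error or by less than 1.5 times. Another 36 moved further, 2 were weaker and 1 was stronger. A reversal, found for 0, could be recorded only for ratios whose main interval left out 1. The turn of the ExoQuick line ratio to 0.836 is therefore counted among those that moved. With each library left out, without the second term, the line fit called 0 miRNAs when an MC38 library was dropped, 43 when C26 Wako was and 58 when C26 ExoQuick was, with 0 to 1 members. The member was miR-300-3p, without C26 ExoQuick and without C26 Wako, where both MC38 libraries were at 0 reads and had no spread. The kit fit called 0 without either C26 library, 41 without MC38 ExoQuick and 11 without MC38 Wako, with 0 members in every such fit. All other settings called 0 members, though DESeq2 gave an adjusted p to miR-369-3p alone among them. The lowest adjusted p of a member in these settings was 0.20 (miR-300-3p, kit difference, limma after quantile normalization). The line calls over all miRNAs went from 13 to 8 with no filter on low values, 6 with TMM scaling, 0 with median-ratio scaling, quantile normalization or no kit term, and 21 with DESeq2. The kit calls went from 21 to 0 with median-ratio scaling or quantile normalization, 4 with TMM scaling, 9 without the line term and 7 with edgeR. The cause was not tested.

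Without miR-369-3p the summed level was 86.2 RPM in C26 ExoQuick and 49.9 RPM in MC38 ExoQuick, the ExoQuick ratio of the lines was 1.73 and the Wako to ExoQuick ratio in MC38 was 5.18. With every listed miRNA of the locus the sum was 153 RPM in C26 ExoQuick, where 36 had reads. Reads that miR-299 entries may share count under each entry in this sum. Chosen after seeing the data, leaving miR-130a-3p out of the totals gave 159 and 189.8 RPM in C26 and MC38 ExoQuick, a ratio of 0.836, and a Wako to ExoQuick ratio in MC38 of 4.80 (0.941 to 15.3). Members with at least 3 reads numbered 3 in MC38 ExoQuick, 2 in C26 Wako and 0 in MC38 Wako, against 325, 257 and 108 of all 795 miRNAs. In MC38 Wako 1 member other than miR-369-3p had a read. Expected after thinning at 3 reads were 5.16 (C26 ExoQuick to MC38 ExoQuick), 0.209 (C26 ExoQuick to C26 Wako), 0.00302 (C26 Wako to MC38 Wako) and 0.000784 (MC38 ExoQuick to MC38 Wako). The line fit compared libraries within a kit and the kit fit within a line, which are the terms left out above. No paired analysis was possible beyond these terms because the labels give no replicate numbers. Depth limits nearly every value: in the Wako libraries a member below 89.0 or 776 RPM can be at 0 reads.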

Other observations

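The strands of the 23 listed members split unevenly between the lines under ExoQuick, a division chosen after the values were seen and given with no test. The 9 listed 5p members had 45 reads in the C26 library and 3 in the MC38 library, and the ratio of their levels was 3.77 (interval 1.21 to 18.9, counting error only). The 14 listed 3p members had 132 and 30 reads, which gives 1.10 (0.739 to 1.70). These intervals overlap. The other 9 listed 5p miRNAs of the locus, which are not members, ran the other way, with 22 and 8 reads and a ratio of 0.690 (0.296 to 1.79, which holds 1). In MC38 ExoQuick the 3 reads of 5p members were 2 of miR-382-5p and 1 of miR-379-5p.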
